A study of Mus musculus with 9 samples.

Results

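Scavenger receptors are cell surface and lysosomal proteins of macrophages and microglia that bind modified lipoproteins, dying cells, amyloid and microbial surfaces. The genes described here were chosen by symbol and are Cd36, Scarb2, Msr1, Marco, Colec12, Mrc1 and Scarf1, 7 of the 21951 genes in the count table. All 7 were found, and 6 had enough reads for the test across genes. Scarf1 did not, and its reads are given as counts.

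RNA was sequenced from BV2 cells, an immortalised mouse microglial line, in 3 groups of 3 libraries. Triol-treated irradiated cells were given 10 µM of the steroid 5α-androst-3β,5α,6β-triol 30 min ahead of one 10 Gy X-ray dose, irradiated cells were given 20% hydroxypropyl-β-cyclodextrin 30 min ahead of the same dose, and control cells were given that vehicle with no dose. No vehicle is named for the triol, and the treatment labels of triol replicates 2 and 3 write the position of the last hydroxyl differently from their titles. There was no group with triol alone, the labels give no time between irradiation and RNA extraction, and they do not say that replicates were separate cultures. The p-values therefore set group differences against the spread between these libraries, and that spread may be technical.

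Class A receptors (Msr1, Marco and Colec12) carry a collagen-like stalk and bind polyanions such as acetylated lipoprotein and bacterial surfaces. Class B receptors (Cd36 and Scarb2) cross the membrane at both ends. CD36 takes up long-chain fatty acids and oxidised lipoprotein, and in microglia binds fibrillar amyloid, while the Scarb2 product, also called LIMP-2, stays in the lysosomal membrane. The mannose receptor encoded by Mrc1 binds glycans and is known in the brain from macrophages at its borders, and Scarf1 is a class F receptor for modified lipoprotein and dying cells.

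After irradiation without triol, Cd36 and Scarb2 rose (1.35-fold and 1.36-fold) and Msr1 fell (0.745-fold), while Colec12, Marco and Mrc1 did not pass the test. With triol added, none of the 6 tested genes differed from irradiated cells past the threshold. The promoters of the genes that rose are shown because both lie on chromosome 5 and moved by a like amount. They come from RefSeq on GRCm38.p6 and run 5′ to 3′ on the gene's strand, from 250 bases before an annotated transcription start to 50 bases after it, and capitals mark a match to one of the motifs searched. For Cd36 the window covers 1 start, while the annotation holds 6 transcripts.
Cd36, chr5:17835847-17836146, minus strand: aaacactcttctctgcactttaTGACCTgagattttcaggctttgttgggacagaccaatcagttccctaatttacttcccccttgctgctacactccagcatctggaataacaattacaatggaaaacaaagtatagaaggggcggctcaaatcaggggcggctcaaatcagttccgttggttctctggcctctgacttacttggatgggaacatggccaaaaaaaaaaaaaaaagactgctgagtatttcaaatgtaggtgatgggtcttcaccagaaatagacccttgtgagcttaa
Scarb2, chr5:92505608-92505907, minus strand: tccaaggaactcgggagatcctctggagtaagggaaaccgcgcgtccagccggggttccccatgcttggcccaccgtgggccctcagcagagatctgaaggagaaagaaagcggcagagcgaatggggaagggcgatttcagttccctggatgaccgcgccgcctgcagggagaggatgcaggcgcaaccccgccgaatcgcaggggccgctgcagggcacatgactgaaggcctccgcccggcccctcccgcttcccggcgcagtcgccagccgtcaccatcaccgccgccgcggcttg

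The windows differed in base composition. GC content was 43.0% for Cd36 and 67.3% for Scarb2, against a median of 52.7% over all 32851 promoters of the same length (quartiles 45.7% and 61.7%). The motifs searched on both strands were the PU.1 core GAGGAA, the AP-1 site TGANTCA, the E-box CACGTG, the PPAR core AGGTCA and the interferon-stimulated response element. The Cd36 window held the PPAR core on the opposite strand, read as TGACCT, starting 228 bases before the start, and the Scarb2 window held none of them. AGGTCA stood in 16.3% of all promoters, GAGGAA in 28.3%, TGANTCA in 7.81%, CACGTG in 7.15% and the interferon-stimulated response element in 3.44%. Windows were used for 4 of the 7 genes, the others being Marco, with 1 GAGGAA match, and Mrc1, with 3. Receptor windows on chromosome 18, where Colec12 lies, were left out, and none was matched for Msr1 and Scarf1. A match is a run of letters and was not tested as a binding site.

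Cd36 (ENSMUSG00000002944, chromosome 5, 17781690 to 17888801, GRCm38) had 241, 258 and 250.3 CPM (read counts scaled to library size by TMM, a method that corrects for library composition) in triol-treated irradiated cells, 239, 234 and 218 CPM in irradiated cells, and 177, 172 and 162 CPM in control cells. Every irradiated library stood above every control library, with or without triol. For this and the separations from control cells below, the share of all genes so separated was not counted. Of all tested genes, 44.3% passed the test for irradiated against control cells. The means were 249.5 ± 8.501, 230.1 ± 10.9 and 171 ± 7.75 CPM (SD, n = 3) for triol-treated irradiated, irradiated and control cells. Irradiated cells were higher than control cells by a log2 fold change of 0.43 (SE 0.04, 95% interval 0.35 to 0.51, 1.35-fold, edgeR adjusted p = 2.1e-12).

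Scarb2 (ENSMUSG00000029426, chromosome 5, 92441314 to 92506833), the lysosomal member, had 127, 128 and 119 CPM in triol-treated irradiated cells, 128, 127 and 124 CPM in irradiated cells, and 93.8, 91.5 and 93.2 CPM in control cells. Control libraries were again the lowest 3, with no overlap. Irradiated cells were 1.36-fold higher than control cells (log2 fold change 0.44, SE 0.04, 95% interval 0.36 to 0.52, edgeR adjusted p = 7.8e-12).

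Msr1 (ENSMUSG00000025044, chromosome 8, 39581685 to 39642673), the macrophage class A receptor for acetylated lipoprotein, moved the other way. It had 7.165, 7.00 and 7.09 CPM in triol-treated irradiated cells, 6.09, 8.00 and 7.06 CPM in irradiated cells, and 9.17, 9.73 and 9.38 CPM in control cells. All control libraries lay above all irradiated ones, although the irradiated group was the most spread, at 7.05 ± 0.955 CPM against 9.43 ± 0.286 CPM in control cells (SD, n = 3). In irradiated cells Msr1 fell by 0.42 on the log2 scale against control cells (SE 0.13, 0.745-fold, edgeR adjusted p = 0.0052). Within a library, which needs no scaling between libraries, Cd36 had 39.2, 29.2 and 30.9 reads for each read of Msr1 in irradiated libraries, against 19.3, 17.7 and 17.3 in control libraries.

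Colec12 (ENSMUSG00000036103, chromosome 18, 9707595 to 9882644), a class A receptor that also carries a C-type lectin domain, had the most reads of the 7. It had 289, 306 and 312.5 CPM in triol-treated irradiated cells, 294, 280.1 and 275 CPM in irradiated cells, and 305.5, 300.4 and 292 CPM in control cells. Irradiated and control libraries overlapped, and the difference did not pass (log2 fold change -0.08, SE 0.03, edgeR adjusted p = 0.056). That value sits close to the threshold: the adjusted p ranged over 0.015 to 0.21 as single libraries were left out, and was 0.019 without control replicate 3 and 0.015 without irradiated replicate 1. It passed in 6 of 15 alternatives, among them each run without a triol library, at a rounded 0.044 to 0.05. Triol libraries are not compared here but share the fit.

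Marco (ENSMUSG00000026390, chromosome 1, 120474538 to 120505024), a class A receptor for bacteria and particles, was near the floor of the data, with 25, 42 and 14 reads in triol-treated irradiated libraries, 21, 23 and 25 in irradiated libraries, and 18, 16 and 9 in control libraries. Irradiated libraries all lay above control libraries in CPM, at 1.57 ± 0.117 against 0.934 ± 0.357 (SD, n = 3). The log2 fold change of 0.76 had a 95% interval of 0.03 to 1.49 and did not pass (edgeR adjusted p = 0.085). As single libraries were left out it ranged over 0.519 without control replicate 3 (adjusted p = 0.29) to 1.03 without control replicate 1 (adjusted p = 0.046), the 1 alternative of 15 in which it passed. Mrc1 (ENSMUSG00000026712, chromosome 2, 14229392 to 14332057) had 6.07, 5.46 and 5.355 CPM in triol-treated irradiated cells, 5.06, 5.78 and 5.16 CPM in irradiated cells, and 5.05, 4.52 and 6.06 CPM in control cells. Its groups overlapped, and irradiated and control cells differed by a log2 fold change of 0.04 with an interval of -0.28 to 0.35 (edgeR adjusted p = 0.87).

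Scarf1 (ENSMUSG00000038188, chromosome 11, 75513540 to 75526582) had 6, 12 and 5 reads in triol-treated irradiated libraries, 10, 2 and 5 in irradiated libraries, and 3, 1 and 1 in control libraries. Scaled to library size, the 17 irradiated reads against 5 control reads made a ratio of 3.70, with a 95% counting interval of 1.31 to 12.8, and the groups overlapped. The 23 reads of triol-treated irradiated cells made a ratio of 4.06 to control cells (1.51 to 13.7), with no overlap. These intervals cover counting error only. No other gene shared exonic bases with any of the 7 on either strand.

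**Figure D1:**
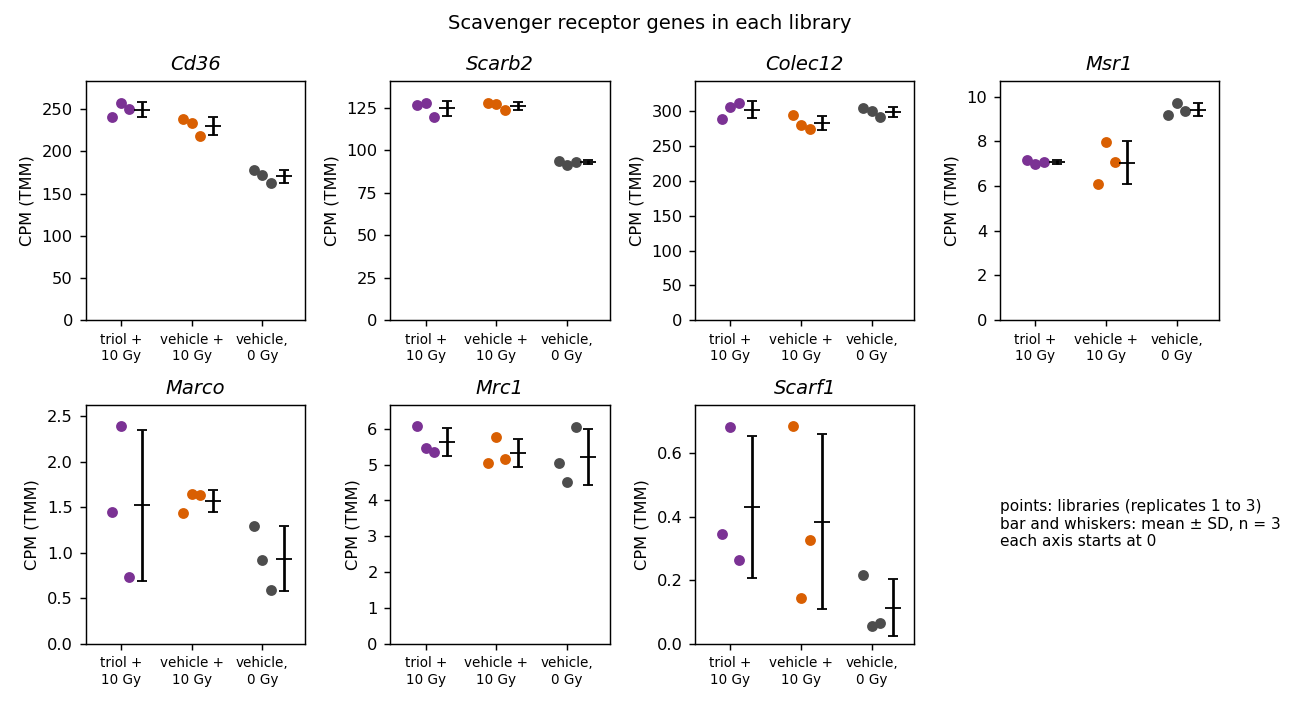
Each panel plots 1 scavenger receptor gene in CPM after TMM scaling on an axis from 0, with triol-treated irradiated, irradiated and control libraries from left to right, and the mean ± SD (n = 3) beside the points. Cd36 and Scarb2 are lowest in the 3 control libraries, Msr1 is highest there, and Marco and Scarf1 rest on few reads.

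Of the 6 tested genes, 2 rose and 1 fell in irradiated cells against control cells, while 44.3% of all 11295 tested genes passed in that comparison, 22.1% higher and 22.2% lower. The count of 3 is therefore near the background. Of all tested genes, 93.7% had a smaller absolute log2 fold change than Marco, 86.9% than Scarb2, 86.5% than Cd36, 86.1% than Msr1, 28% than Colec12 and 13.4% than Mrc1. The median log2 fold change of all tested genes was 0.0067. The call of 3 genes became 5 without control replicate 1, when Marco and Scarf1 passed as well. Scarf1 was not in the main fit and entered here because the filter asks for fewer libraries when 1 is left out. The library left out held 3 of the 5 control reads of Scarf1.

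The comparison of triol-treated irradiated with irradiated cells asks whether the steroid alters the response of irradiated cells. The number of receptor genes past the threshold was 0 of 6 in edgeR's quasi-likelihood test, as in limma-voom. DESeq2 gave no adjusted p for Marco, Mrc1 and Msr1 here, and Cd36, Colec12 and Scarb2 did not pass in it. In edgeR 0.106% of all tested genes passed, 12 in number (0.0974% higher and 0.00885% lower). At an unadjusted p under 0.05 there were 2 receptor genes, Cd36 and Colec12, where 7.66% of all tested genes lay under it. Cd36 was the 1 receptor gene of 7 whose triol libraries all lay above the irradiated libraries, as did 7.35% of all tested genes. Its log2 fold change was 0.12 with a 95% interval of 0.04 to 0.19 (1.08-fold, edgeR adjusted p = 0.33). Colec12 gave 0.10 with an interval of 0.03 to 0.16 and overlapping groups (edgeR adjusted p = 0.40). For Scarb2 the difference was -0.02, with an interval of -0.10 to 0.06, for Msr1 0.01 (-0.25 to 0.27), and for Mrc1 0.08 (-0.23 to 0.38). Marco gave -0.06 with an interval of -0.70 to 0.58, the widest of the 6.

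Triol-treated irradiated cells and control cells, a comparison that shares its libraries with the other ones, again gave 2 genes higher and 1 lower of 6, where 43.3% of all tested genes passed, 21.5% higher and 21.7% lower. Cd36 was 1.46-fold higher than in control cells (log2 fold change 0.55, SE 0.04, edgeR adjusted p = 1.2e-15), against 1.35-fold for irradiated over control cells. Scarb2 rose by a log2 fold change of 0.42 (edgeR adjusted p = 1.4e-11) and Msr1 fell by 0.41 on the log2 scale (edgeR adjusted p = 0.0047). Colec12 and Mrc1 gave 0.02 and 0.11 with adjusted p-values of 0.72 and 0.57. Marco gave 0.70 (edgeR adjusted p = 0.10), with 0.212 (adjusted p = 0.71) without triol replicate 2, the library with 42 reads, and 1.04 (adjusted p = 0.015) without triol replicate 3, the library with 14 reads. Without replicate 3, 5 receptor genes passed, among them Scarf1, which entered the test through the same change of the filter.

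**Figure D2:**
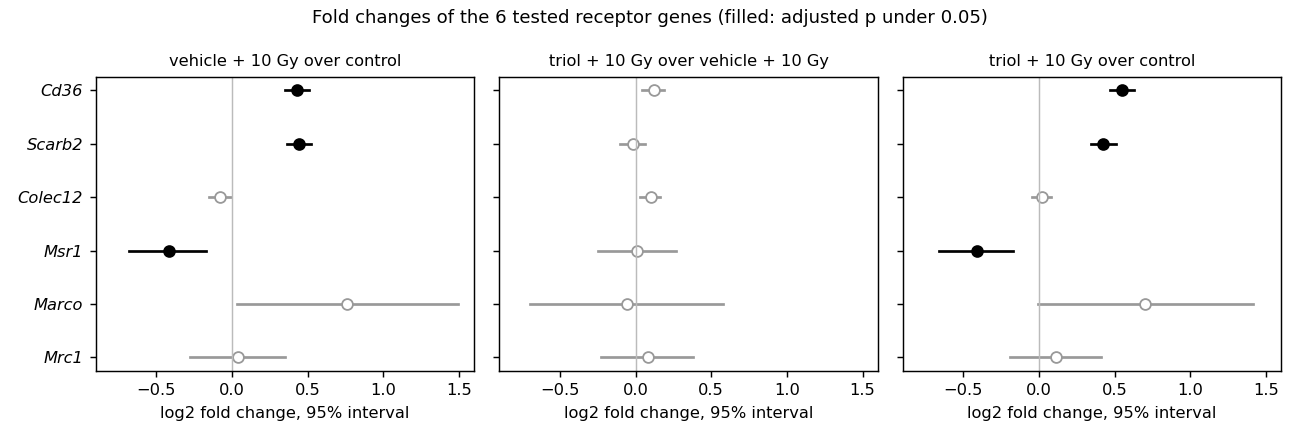
Log2 fold changes of the 6 tested receptor genes with 95% intervals, 1 panel per comparison, filled where the edgeR adjusted p is under 0.05. Cd36, Scarb2 and Msr1 are filled in both comparisons with control cells, no gene is filled for triol-treated irradiated over irradiated cells, and Marco has the widest interval.

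Levels between genes were compared as RPKM, which divides CPM by the length of the annotated exons in kilobases. Cd36 averaged 69.5 ± 2.36 RPKM in triol-treated irradiated cells, 64.1 ± 3.05 RPKM in irradiated cells and 47.5 ± 2.15 RPKM in control cells (SD, n = 3), and led every other gene in each group, although Colec12 had more reads. Colec12 averaged 34.7, 32.5 and 34.3 RPKM in the same order of groups, and Scarb2 19.8, 20.1 and 14.8 RPKM. Msr1 stood at 1.12, 1.11 and 1.49 RPKM, Mrc1 at 0.883, 0.837 and 0.818, Marco at 0.791, 0.816 and 0.485, and Scarf1 at 0.149, 0.133 and 0.0391. The order of the means was the same in the 3 groups, and in both irradiated groups the library ranges of Mrc1 and Marco overlapped. In triol-treated irradiated cells Marco, at 0.382 to 1.24 RPKM, also spanned the range of Msr1. Msr1 depends most on the transcript length used: its control level was 1.49 RPKM over all annotated exons and 2.59 RPKM over the longest transcript, with the order of genes kept.

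The make-up of receptor RNA shifted with irradiation. Cd36 made up 54.7% of the summed RPKM of the 7 genes in triol-treated irradiated cells and 53.6% in irradiated cells, against 47.8% in control cells. The library ranges were 54.4% to 54.9%, 52.9% to 54.0% and 47.0% to 48.3%. Shares follow from the levels above and are no separate test. The Cd36 level did not pass between triol-treated irradiated and irradiated cells (edgeR adjusted p = 0.33). Colec12 had 27.3%, 27.2% and 34.5% in the same groups, while its own level did not pass the test. The summed level was 123 to 131 RPKM in triol-treated irradiated libraries and 115 to 123 in irradiated libraries, against 96.2 to 102 in control libraries.

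**Figure D3:**
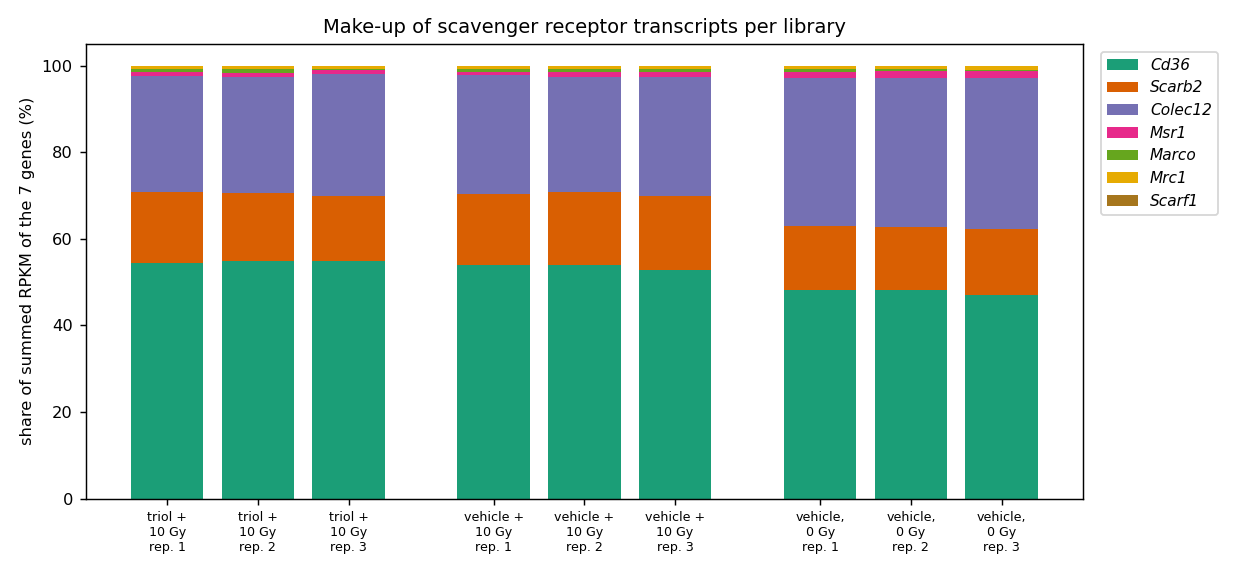
Stacked bars give each gene's share, in percent, of the summed RPKM of the 7 receptor genes in every library, with triol-treated irradiated, irradiated and control libraries from left to right. Cd36 holds a larger share and Colec12 a smaller one in all 6 irradiated libraries than in the 3 control libraries.

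The genes nearest in pattern were taken from 8695 genes with at least 10 CPM, by the root mean square difference, over 9 libraries, of log2 CPM from the control mean. Nearest to Cd36 were Ogfr (0.0433), Tor1aip2 (0.0452) and Ctsl (0.0504), the last a lysosomal protease. Nearest to Scarb2 were Ddx24 (0.0322), Hsp90aa1 (0.0388) and Zfp346 (0.039), and nearest to Msr1 were Pkd1 (0.0469), Tifa (0.0601) and Cdk5rap3 (0.0631). Colec12 lay nearest to Tmem63b (0.0298) and Mrc1 to Uprt (0.0611), while Marco had no gene closer than Map1a (0.38). Among the 6 tested receptors, Scarf1 not being compared, Cd36 and Scarb2 were the closest pair, at 0.0883, and Msr1 and Marco the farthest, at 0.978. Marco had 9 to 42 reads per library and group means of 0.934 to 1.57 CPM, under the 10 CPM asked of candidate genes. The part of counting noise in the distances of Marco was not tested.

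Of 20 other scavenger receptor genes in the count data, 12 were tested, and 3 rose and 5 fell in irradiated cells against control cells. Among all tested genes 22.1% rose and 22.2% fell in that comparison, the background for this list and those below. Cd14, the lipopolysaccharide co-receptor, fell by 0.69 on the log2 scale to 202 ± 11.8 CPM in irradiated cells, against 326 ± 26.9 CPM in control cells (SD, n = 3, edgeR adjusted p = 3.0e-09). Lrp1, an endocytic receptor for apolipoprotein E, fell by 0.54 (adjusted p = 7.8e-13), and Cd68 and Cd44 fell by 0.36 and 0.33. Scarb1, which is of class B like Cd36 and Scarb2, fell by 0.26 (adjusted p = 2.6e-07). The genes that rose were low: Lrp2 by 1.58, Ssc5d by 0.60 and Cxcl16 by 0.68, the last at an adjusted p of 0.0499 that was lost in most alternatives. The list's median was -0.132. Of 8 tested genes of the mannose receptor family and other macrophage C-type lectins (14 listed), Clec12a rose by 0.93 and Clec4e and Clec4d fell by 0.54 and 0.22.

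Of 17 partners of CD36 and class A receptors at the membrane, all tested, 9 fell and 0 rose, while 22.2% of all tested genes fell. The number that rose was 1 (Tlr2) with upper quartile scaling, and the median as reported was -0.107. The integrin chains Itgb2 and Itgam, which pair as complement receptor, fell by 0.46 and 0.42, the tetraspanin Cd9 by 0.31, and Trem2, a lipid-sensing microglial receptor, by 0.45 (largest edgeR adjusted p of these 4, 1.5e-07). Tlr2 and Tlr4 did not pass, at 0.09 and -0.09, and Tlr6 and Vav1 fell by 0.21 and 0.11 but lost their calls in 10 and 3 of 15 alternatives. Among 8 tested protein ligands 4 rose and 4 fell. Saa3, an acute phase apolipoprotein, rose by 1.80, Thbs1, the thrombospondin bound by CD36, by 1.15, Hspd1 by 0.34 and Hmgb1 by 0.17, while Anxa1, App, Apoe and Calr fell by 0.28, 0.15, 0.13 and 0.09, the call of Calr being lost in 3 alternatives.

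Transcription factors known to act on these receptors were mostly lower. Of 17 tested, 13 fell and 1 rose, with a median of -0.248, while 22.2% of all tested genes fell and 22.1% rose. The list was chosen with earlier results of these data known. Maf fell by 1.2, Irf8 by 0.43, and Spi1, which encodes PU.1, by 0.25 to 189 ± 8.03 CPM in irradiated cells, against 225 ± 8.64 CPM in control cells (SD, n = 3, edgeR adjusted p = 3.6e-07). Pparg, the lipid-sensing receptor that drives Cd36 in macrophages, was the gene that rose, by 1.61 (adjusted p = 0.016), on 38 reads in irradiated cells against 13 in control cells. It lost its call without control replicate 3 (0.12) and without irradiated replicates 2 (0.068) or 3 (0.058). With only the compared groups fitted, Pparg was not among the tested genes. Its part in the Cd36 level was not tested.

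Of 17 tested genes that handle lipid after uptake, 3 rose and 7 fell. Cpt1a, which admits fatty acids to mitochondrial oxidation, rose by 0.98 and the lipid droplet coat gene Plin2 by 0.26, while Lpl fell by 0.43 and Fabp5 by 0.39 (largest edgeR adjusted p of these 4, 1.6e-07). Of 13 lysosomal genes around LIMP-2, 2 rose and 2 fell. Lamp1 and Igf2r rose by 0.10 and 0.12, and Tmem106b and Gnptab fell by 0.31 and 0.19. Of 4 tested genes of alternative macrophage activation (10 listed), Tgm2, Il4ra and Pdcd1lg2 rose by 1.72, 0.53 and 1.27 and Egr2 fell by 0.60, the call of Pdcd1lg2 being lost in 5 alternatives. In every one of these lists the number of genes past the threshold between triol-treated irradiated and irradiated cells was 0. The nearest was Lpl, at 1967 ± 88.1 CPM in triol-treated irradiated cells and 1803 ± 44.6 CPM in irradiated cells (SD, n = 3), which passed in 6 of 15 alternatives.

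**Figure D4:**
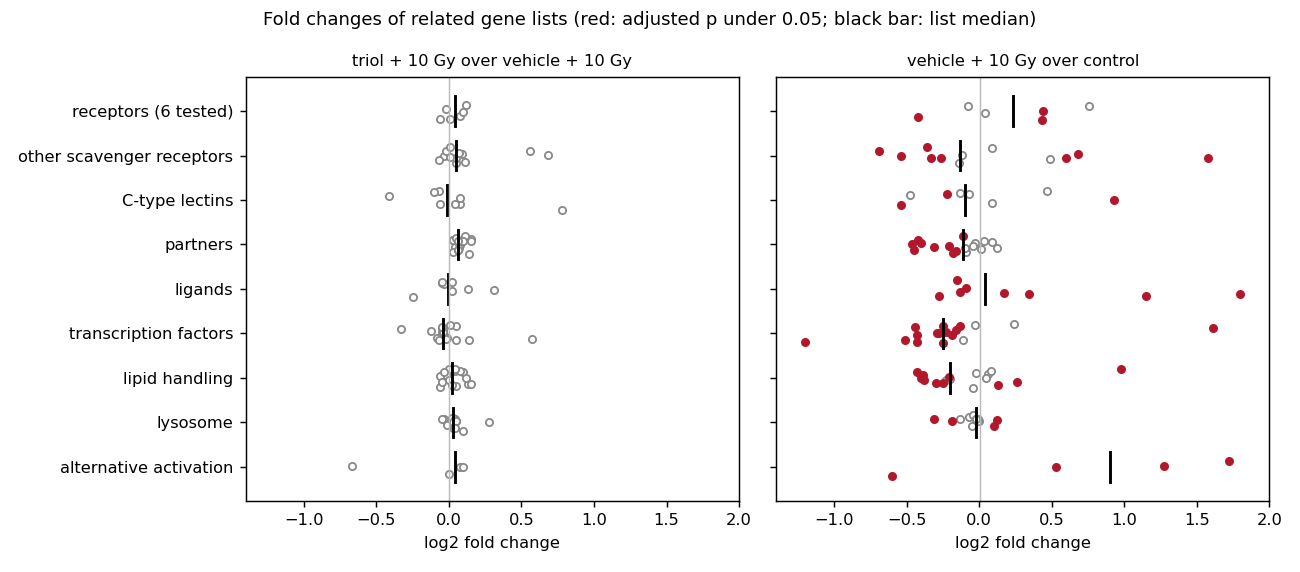
Points are log2 fold changes of single tested genes by list, with triol-treated irradiated over irradiated cells on the left and irradiated over control cells on the right, red where the edgeR adjusted p is under 0.05, and black bars are list medians. No point is red on the left, and on the right the transcription factors and partners lie mostly below 0.

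Total counts were 17230866 to 18944051 in triol-treated irradiated libraries, 13879062 to 15192203 in irradiated libraries and 14118475 to 17705424 in control libraries. All 10 microglial and macrophage markers had reads. Their summed level was 1746 to 1782 CPM, 1727 to 1779 CPM and 2303 to 2431 CPM in the same order of groups. Of the 10, 7 passed as lower in irradiated than in control cells, as did 22.2% of all tested genes. Markers of border macrophages, the brain cells best known for Mrc1, summed to 85.9 to 93.2, 82.5 to 91.8 and 75.2 to 83.7 CPM, with Cd209f at 0 in all libraries and Cd163 at 0 in irradiated and control libraries. Endothelial markers, in a cell type that also expresses Cd36, summed to 1.48 to 2.54, 1.29 to 2.46 and 0.229 to 0.794 CPM, with Cldn5 and Emcn at 0. Cdh5 and Tek were also at 0 in control libraries, and Pecam1 was the 1 endothelial marker tested. Adipocyte markers, mostly Fabp4, summed to 102 to 113, 106 to 117 and 144 to 146 CPM with Lep at 0, and hepatocyte markers to 35.7 to 39.8, 31.4 to 34.55 and 27.1 to 31.4 CPM. Of 14 hepatocyte markers 6 were tested, and Alb, Serpina1e and Serpina3k rose with triol against irradiated cells, as did 0.0974% of all tested genes. Apoa2, Hp and Trf did not pass there, with Hp at a log2 fold change of -0.25 to -0.15 over the alternatives. Astrocyte markers, mostly Aldoc, summed to 99.4 to 108, 102 to 113 and 148 to 151 CPM with Aqp4 at 0, and neuronal markers to 2.16 to 2.77, 1.14 to 1.98 and 0.0652 to 0.630 CPM. Tubb3 was the 1 neuronal marker tested, and Rbfox3, Syt1 and Snap25 were at 0 in irradiated libraries. The part of these markers in the receptor values was not tested, and in bulk RNA fewer cells of a kind and less RNA per cell cannot be told apart.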

How the data were processed

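The authors deposited whole-number read counts per gene, not normalised, with 1 column per library. Per the submitters' processing notes reads were handled with STAR 2.7.1a, featureCounts of the Subread 1.6.3 package, fastp 0.18.0 and FastQC, and the build was GRCm38. Not given in the sources used here are the annotation release, the strand setting and how multi-mapped reads were counted. Groups came from sample titles. Receptor genes and lists were chosen with earlier results of these data known. Genes with few counts were removed with filterByExpr, leaving 11295 of 21951, and all 9 libraries were fitted together by edgeR 4.0.16 (R 4.3.3) and tested with its quasi-likelihood F test (TMM, robust, 6 residual degrees of freedom, two-sided, Benjamini-Hochberg over all tested genes, threshold 0.05). The fit was tested on simulated data with known changes in few genes and the same relative spread for all genes. Against control cells 44.3% of tested genes passed in the real data, so the simulation does not show how often calls there are false. CPM used TMM library sizes, and RPKM the exon lengths of GENCODE M21 on GRCm38, whose coordinates are 1-based. Alternatives were DESeq2 1.42.0, limma-voom with limma 3.58.1, upper quartile scaling, no filter, the compared groups alone, a replicate block, and each library left out. No 2 libraries of a group agreed within sampling noise (chi-square per degree of freedom 2.00 to 3.01). Genes named from lists were those with the smallest adjusted p, up to 4 per list, and others past the threshold with their values. Single values of some list genes are not reported here.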

Additional observations from a re-analysis of the deposited data

How the results depend on the processing

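The number of receptor genes past the threshold was 3 for irradiated against control cells and ranged over 3 to 5 as single libraries were left out. For triol-treated irradiated against control cells it was 3, with a range of 3 to 5, and for triol-treated irradiated against irradiated cells it was 0 in every alternative run. In that last comparison DESeq2 gave no adjusted p for Marco, Mrc1 and Msr1, so its 0 covers Cd36, Colec12 and Scarb2 only. Part of both ranges comes from Scarf1, which failed the filter in the main fit and entered some runs with a library left out. Cd36, Scarb2 and Msr1 kept their direction and their calls against control cells in all 15 alternatives of each such comparison, with Msr1 at an adjusted p of up to 0.048 in irradiated against control cells. Leaving out single libraries turned the sign of values that had not passed. For irradiated over control cells, the log2 fold change of Mrc1 ranged over -0.067 to 0.155. For triol-treated irradiated over irradiated cells, Marco ranged over -0.544 to 0.284, Scarb2 over -0.037 to 0.01 and Msr1 over -0.089 to 0.104. For triol-treated irradiated over control cells, Colec12 ranged over -0.015 to 0.04. Colec12 passed for irradiated against control cells in 6 of 15 alternatives, among them the run without the filter, at -0.09 (adjusted p = 0.028). The cause was not tested. Over all genes, the 12 called for triol against irradiated cells became 8 with upper quartile scaling, 19 with DESeq2, 16 with limma-voom, 22 with the compared groups alone and 36 without the filter, and 6 to 19 as libraries were left out. Upper quartile scaling raised the lipid handling genes that rose in irradiated cells to 5, against 3. Between triol-treated irradiated and irradiated cells, where the lists had 0 calls, Lpl passed in 6 alternatives, Cd9 with DESeq2 (0.033) and Atp6v0d2 without the filter (0.041). The replicate block gave 22, and 3, 0 and 3 receptor genes. Same-numbered libraries deviated together weakly at most: 2 of 9 pairs correlated above 0.1, and 4 of 9 libraries correlated best with their own number. Control and irradiated pairs gave 0.08, 0.12 and 0.13, and pairs with a triol library -0.1 to -0.01. The low read counts of Marco and Scarf1 limit what their values can show.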
